A study of Homo sapiens with 77 samples.

Results

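The human line KARPAS422 derives from a diffuse large B-cell lymphoma (DLBCL), and its baseline is described here through the genes whose RNA level set it apart from every one of 3 other DLBCL lines. The data are 2 RNA-seq libraries of KARPAS422 cells given DMSO, the solvent in which the menin inhibitor MI-503 was dissolved, out of 77 samples in the series. They were compared with the DMSO libraries of DB, Farage and SUDHL5, 2 per line, with each line weighted equally. The study marks KARPAS422 and DB as EZH2 mutant and Farage and SUDHL5 as EZH2 wildtype, and no further genotype, donor or passage was used. The lines were a gift, grew in the same medium with serum, and were not authenticated by the study's methods. Each line stands for 1 tumor, so a difference belongs to these 4 lines and cannot be assigned to EZH2 status or to any other property on which they differ. No label states whether both libraries of a line stem from separate cultures. The p-values therefore reflect only how much these libraries varied, which may be technical. RNA was sequenced after removal of ribosomal RNA and counted per gene, and levels are given in CPM, a gene's count as parts of 1000000 of its library's total, after scaling that brings most genes to the same level between libraries. A level is per cell pool, so fewer cells expressing a gene and less RNA per cell cannot be told apart.

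DLBCL arises from mature B cells, most often from the germinal center, where B cells mutate their antibody genes and meet T cells. Germinal center B cells carry CD20 and the B cell receptor, present antigen on MHC molecules, and receive signals through CD40 and NF-kB that drive their exit toward memory or plasma cells. Type I interferons act on nearly every cell type and switch on antiviral genes through a complex that includes STAT2 and IRF9, and interferon gamma raises antigen presentation. EZH2 is the enzyme of the Polycomb complex PRC2 that methylates histone H3 at lysine 27, and menin ties the histone methyltransferase MLL1 to chromatin.

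The 2 KARPAS422 libraries held 54883332 and 54815080 counts. The other 6 held 14556778 to 15921296 counts, except the first SUDHL5 library with 54653277. Mitochondrial genes took 3.70% to 3.77% of the counts in KARPAS422 and 6.97% to 9.36% in the other lines, and the 20 most counted genes took 7.54% to 7.58% in KARPAS422 and 12.1% to 14.2% elsewhere. A count of 3, used here as the floor of detection per library, corresponded to 0.0511 to 0.0514 CPM in KARPAS422 and to 0.0580 to 0.219 CPM in the other lines, so a low gene was more readily seen in KARPAS422. Libraries of a line differed by more than sampling noise, with a chi-square per gene of 4.38 in KARPAS422 against 1.96 to 3.71 for the other lines. This value was taken on unscaled counts and grows with depth, so it does not rank the lines by how much their libraries varied. All 8 were kept as separate libraries. The B cell label held in KARPAS422. MS4A1, which encodes CD20, had 1073 and 1015 CPM in KARPAS422, against 1191 and 1227 in DB, 1151 and 1170.4 in Farage and 1031 and 1075 in SUDHL5. PAX5, the transcription factor of B cell commitment, had 648 CPM in both KARPAS422 libraries, against 441 and 429 in DB, 388 and 394 in Farage and 542 and 519 in SUDHL5.

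Of 14066 genes with enough counts to test, 1166 were higher in KARPAS422 than in each of the 3 other lines (8.29%) and 1227 were lower than in each (8.72%). For such a set-apart gene all 3 pairwise comparisons had to give the same direction, more than 1.5-fold, with an adjusted p below 0.1, in fits of edgeR's quasi-likelihood test. KARPAS422 was not singled out by the number of such genes. The same rule gave 1513 higher and 1533 lower for DB, 1453 and 1079 for Farage, and 1196 and 993 for SUDHL5. Against the mean of the 3 lines, 3227 genes were higher in KARPAS422 (22.9%) and 3080 lower (21.9%), with a median log2 difference over all tested genes of 0.04. In 2970 genes both KARPAS422 libraries lay above all 6 others (21.1%), and in 2373 both lay below (16.9%). Among set-apart genes the difference from the nearest line had a median of 1.13 on the log2 scale for higher genes and -1.42 for lower genes. It exceeded 4-fold from every line for 297 higher and 449 lower genes.

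**Figure D1:**
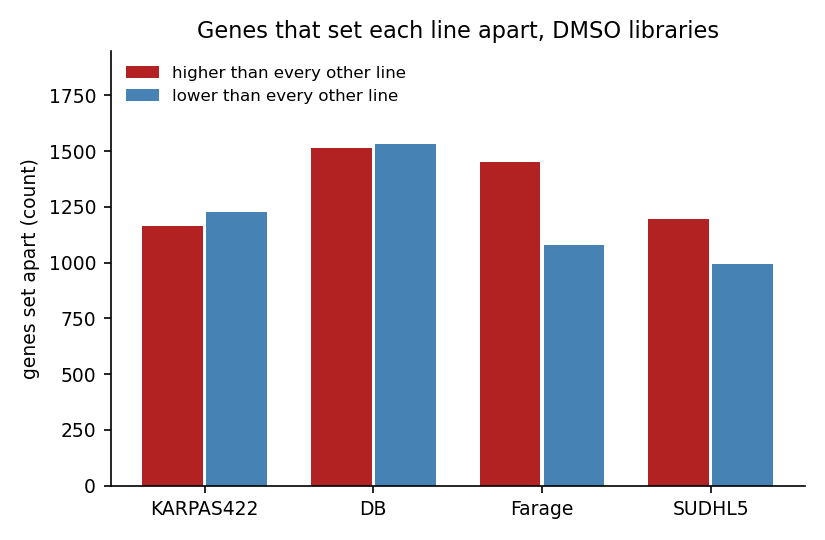
Genes that set each line apart from the other 3 in the DMSO libraries, as counts of genes on the vertical axis with the higher and lower genes of each line side by side. KARPAS422 had 1166 higher and 1227 lower genes, within the 993 to 1533 seen per direction in DB, Farage and SUDHL5.

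Genes that interferon induces were mostly higher in KARPAS422 than in every other line. Of 58 tested members of a list of interferon-stimulated genes, 48 were set apart as higher and 2 as lower, where 8.29% and 8.72% of all genes were. Their median log2 difference from the mean of the 3 lines was 3.99, against 0.04 over all genes. Summed over the list, as parts of the library total without the scaling between libraries, KARPAS422 held 11888 and 11285 CPM. The other 6 libraries held 1270 to 1859 CPM.

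MX1 (chr21:41420020-41470071, + strand, hg38), a GTPase that blocks viruses in the cytoplasm, had 959.7 and 913 CPM in KARPAS422, against 1.97 and 1.99 in DB, 28.1 and 29.5 in Farage and 15.3 and 15 in SUDHL5. KARPAS422 stood above every other library, by 5.02 to 8.88 on the log2 scale over the 3 lines and by 6.61 ± 0.03 (SE), adjusted p = 1.45e-20, over their mean. IFI27 (chr14:94104836-94116695, + strand), a mitochondrial protein strongly induced by interferon, had 987 and 946 CPM in KARPAS422, against 0.591 and 1.31 in DB, 0.51 and 0.739 in Farage and 0.986 and 0.624 in SUDHL5. IFI44, an interferon-induced cytoplasmic protein, had 368 and 331 CPM in KARPAS422, against 0.292 and 0.47 in Farage, 0.058 and 0.0693 in SUDHL5 and 0 in DB, which is at least 1682-fold higher than in DB at the floor of 3 counts per library. Both genes were below 2 CPM in all 6 libraries of the other lines, so the groups did not overlap.

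The IFIT family encodes proteins that bind foreign RNA lacking host cap marks. IFIT1 had 177 and 148 CPM in KARPAS422, against 0.459 and 0.249 in DB, 0.146 and 0.336 in Farage and 0.251 and 0.277 in SUDHL5, a difference from the mean of 9.15 ± 0.12 (SE), adjusted p = 3.08e-17. IFIT2, IFIT3, IFIT1 and IFIT5 lie side by side on chromosome 10, and all 4 were set apart as higher with a median of 8.47 on the log2 scale. The OAS enzymes sense double-stranded RNA and make the signal that activates RNase L. OAS1, OAS3 and OAS2, neighbours on chromosome 12, were all higher, and OAS3 had 270.3 and 253 CPM in KARPAS422, against 1.64 and 0.81 in DB, 19 and 17.6 in Farage and 3.56 and 3.4 in SUDHL5. The other lines were not uniform, since Farage held more OAS3 than SUDHL5 and DB. IFI6, an interferon-induced membrane protein, had 358 and 343 CPM in KARPAS422, against 0.262 and 0.311 in DB, 8.31 and 8.66 in Farage and 4.83 and 3.12 in SUDHL5. Of the 10 members not set apart as higher, 2 were set apart as lower. The first was IFITM2, which restricts virus entry, with 5.84 and 6.32 CPM in KARPAS422, against 16.2 and 15.4 in DB, 52.6 and 52.4 in Farage and 24.3 and 21 in SUDHL5. The other was GBP4, a guanylate-binding protein with low counts throughout, with 0.411 and 0.647 CPM in KARPAS422, against 0.787 and 1.37 in DB, 5.98 and 7.72 in Farage and 1.82 and 0.763 in SUDHL5. The remaining 8 were set apart in neither direction, and among them IFIH1, a sensor of viral RNA, lay below Farage and SUDHL5, with log2 differences of -1.97 and -1.22, and GBP1, another guanylate-binding protein, lay below Farage by -4.99.

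**Figure D2:**
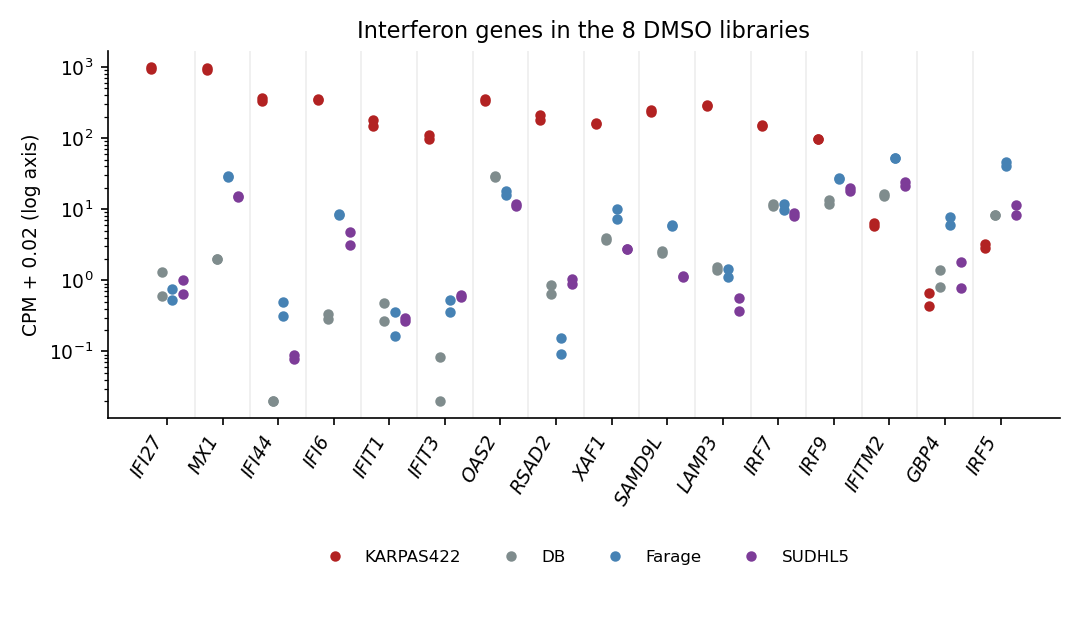
Levels of interferon-stimulated genes and interferon regulators in the 8 DMSO libraries, as CPM plus 0.02 on a log axis, with 1 point per library and KARPAS422 leftmost within each gene. The KARPAS422 points lay above all others for MX1 (959.7 and 913 CPM) and IFI27 (987 and 946 CPM), whereas those of IRF5 lay below.

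The regulators of the pathway were listed apart from its targets. Of 30 tested receptors, kinases, sensors and transcription factors, 9 were set apart as higher and 1 as lower (8.29% and 8.72% of all genes), with a median log2 difference of 0.73. IRF9, a subunit of the type I transcription complex, had 98.2 and 96.9 CPM in KARPAS422, against 13.3 and 11.8 in DB, 27.7 and 26.6 in Farage and 19.9 and 17.8 in SUDHL5. IRF7, which amplifies interferon transcription, had 155 and 148 CPM in KARPAS422, against 11.7 and 11 in DB, 11.7 and 9.8 in Farage and 8.76 and 8.04 in SUDHL5. For both genes the 2 KARPAS422 libraries were above all others, with differences from the mean of 2.38 ± 0.05 and 3.90 ± 0.05 (SE) on the log2 scale. USP18, a feedback inhibitor of the type I receptor, had 53.8 and 48.8 CPM in KARPAS422, against 0.197 and 0.187 in DB, 0.729 and 0.671 in Farage and 1.82 and 1.66 in SUDHL5. IFNGR1, IL10RB, MYD88, TLR9 and UNC93B1 were also set apart as higher.

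STAT2 was not set apart, with 141 and 138 CPM in KARPAS422, against 54 and 51.2 in DB, 98.1 and 92.5 in Farage and 108 and 97.6 in SUDHL5, since its difference from SUDHL5 and Farage stayed under 1.5-fold. JAK1, the kinase bound to both interferon receptors, lay between the lines, at 47.5 and 47.6 CPM in KARPAS422, against 30.9 and 28.2 in DB, 393 and 379.8 in Farage and 342 and 329 in SUDHL5. IFNAR1, a subunit of the type I receptor, differed by 0.16 to 0.49 on the log2 scale over the 3 lines and was not set apart. IRF5, a transcription factor of Toll-like receptor and interferon signaling, was the regulator set apart as lower, with 3.22 and 2.81 CPM in KARPAS422, against 8.33 and 8.29 in DB, 46.2 and 41.2 in Farage and 11.5 and 8.32 in SUDHL5. Its difference from the mean was -2.37 ± 0.12 (SE), adjusted p = 1.83e-10.

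Promoter sequences of these genes were read from RefSeq (GRCh38.p14, 250 bases before to 50 after each start), to show the letters that the interferon factors are known to bind. The interferon response element was searched on both strands as GAAA, any 2 letters, then GAAA. It was present in 24 of 37 promoters of set-apart higher members (64.9%), in 3.65% of all 27305 promoters of the table and in 2.94% of 10531 promoters of tested genes. Promoters were available for 37 of the 48 higher members. GBP4, the 1 set-apart lower member with a promoter, held the element too. The list was drawn up from genes known to respond to interferon, so the contrast with all promoters is not a test. A match is a description of letters and not a measured site. Stretches of 30 bases around a match are printed in the direction of transcription for 4 genes whose values are given above and for ISG15, with the matching letters in capitals (as the reverse complement for IFIT1 and IFI27). They lie at chr10:89392497-89392526 (+ strand), chr14:94110618-94110647 (+), chr12:112938321-112938350 (+), chr1:27672329-27672358 (- strand) and, for ISG15, chr1:1013380-1013409 (+).
IFIT1: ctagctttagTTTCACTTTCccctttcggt
IFI27: atgtctgcagTTTCGGTTTCctggaaaatg
OAS3: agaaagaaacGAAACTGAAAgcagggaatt
IFI6: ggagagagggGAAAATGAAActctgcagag
ISG15: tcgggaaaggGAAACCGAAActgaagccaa

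Cells of the same line were also sequenced in the study's other RNA-seq experiment, and their control libraries (K422_CTR) did not show every one of these levels. IFI27 had 987 and 946 CPM in the KARPAS422 DMSO libraries, against 0.956 and 2.14 CPM in K422_CTR, and IRF7 had 155 and 148 CPM, against 1.76 and 0.56 CPM in K422_CTR. ISG15, a ubiquitin-like protein, went the other way, with 3.72 and 2.79 CPM in the DMSO libraries, against 307 and 412 CPM in K422_CTR. MX1 and IFI44 were high in both, with 959.7 and 913 CPM in the DMSO libraries against 902 and 908 CPM in K422_CTR for MX1, and 368 and 331 CPM against 231 and 195 CPM in K422_CTR for IFI44. The 2 tables were normalized separately, so these levels are set side by side only, and the part of counting, culture or date in the differences was not tested. Against SuDHL10, a further EZH2 mutant DLBCL line in that experiment, 30 of the 42 higher interferon-stimulated genes tested there were again higher in KARPAS422. The share was 25.7% over all genes and 72.4% over all set-apart higher genes tested there. MX2 and NMI were lower. IFIT1, IFIT2, IFIT3, IRF9 and IFITM1 were not among the genes tested there, so their levels were not compared between the experiments.

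Genes of MHC class I, which shows peptides from inside the cell to T cells, were set apart as higher in 7 of 18 tested cases (38.9%, where 8.29% of all genes were) and as lower in none (8.72% of all genes), with a median log2 difference of 1.38. HLA-B (chr6:31353872-31367067, - strand), a heavy chain of class I, had 821 CPM in both KARPAS422 libraries, against 3.08 and 2.55 in DB, 71.4 and 72.9 in Farage and 258 and 230.3 in SUDHL5, and DB was nearly empty of it. B2M, the light chain, had 1910.2 and 1785 CPM in KARPAS422, against 209 and 215 in DB, 856 and 841 in Farage and 649 and 667 in SUDHL5. TAP1, which pumps peptides into the endoplasmic reticulum, had 380.3 and 362 CPM in KARPAS422, against 58.2 and 63 in DB, 86.3 and 85.5 in Farage and 47.3 and 46 in SUDHL5. All 3 were above every library of the other lines, and B2M was nearest to Farage, with a log2 difference of 1.12. HLA-C and the immunoproteasome subunits PSMB8 and PSMB9 were set apart as well, with differences from the mean of 2.81 ± 0.03, 1.696 ± 0.04 and 1.93 ± 0.04 (SE). HLA genes have near-identical copies and many alleles, so counts of a single HLA gene are uncertain. B2M had 1910.2 and 1785 CPM in the KARPAS422 DMSO libraries, against 106 and 88.8 CPM in K422_CTR cells, and HLA-C had 392 and 381 CPM, against 19.9 and 19.8 CPM in K422_CTR cells.

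MHC class II genes, which present peptides to helper T cells, were set apart as higher in 4 of 18 cases (22.2%) and as lower in none, where 8.29% and 8.72% of all genes were. Their median log2 difference was 1.504, or 1.13 when genes absent from a line were held at the floor. HLA-DRB1 had 255 and 257 CPM in KARPAS422, against 3.87 and 4.92 in DB, 1.6 and 2.55 in Farage and 142 and 129.6 in SUDHL5. SUDHL5 stood closest and DB and Farage had little. The same order was seen for HLA-DRA, which was not set apart, at 478 and 477 CPM in KARPAS422, against 4.59 and 4.05 in DB, 0.51 and 0.671 in Farage and 362 and 416 in SUDHL5. CIITA, the master activator of class II, had 148 and 158 CPM in KARPAS422, against 1.44 and 1.37 in DB, 261 and 260.4 in Farage and 85.9 and 81.6 in SUDHL5, and therefore lay below Farage. CD74, the class II chaperone, lay below SUDHL5. HLA-DPA1, HLA-DQA1 and HLA-DMA, the last a peptide loader, were the other 3 set apart, by 0.60 to 1.49 on the log2 scale for HLA-DMA.

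Targets of NF-kB, the pathway downstream of CD40 and of chronic B cell receptor signaling, were more often lower than higher in KARPAS422. Of 41 tested targets, 13 were set apart as lower and 4 as higher, where 8.72% and 8.29% of all genes were, with a median log2 difference of -0.68. Summed over the list, without the scaling between libraries, KARPAS422 held 2509 and 2486 CPM, above DB with 1624 and 1629. SUDHL5 held 3444 and 3389 CPM and Farage 7801 and 7748. BIRC3 (chr11:102317484-102339403, + strand), an inhibitor of apoptosis, had 1.73 and 1.64 CPM in KARPAS422, against 100.1 and 108 in DB, 1173 and 1174 in Farage and 694 and 713 in SUDHL5. The KARPAS422 level was below every other library, with log2 differences of -5.95 to -9.44 from the 3 lines and of -8.03 ± 0.06 (SE), adjusted p = 1.43e-19, from their mean. RELB, a subunit of the noncanonical pathway, had 5.5 and 6.15 CPM in KARPAS422, against 35.1 and 38.6 in DB, 131 and 135 in Farage and 217 and 206 in SUDHL5. NFKB2, its partner, had 6.58 and 7.43 CPM in KARPAS422, against 31.6 and 33.6 in DB, 664 and 685 in Farage and 245 and 227 in SUDHL5. DB was the nearest line for both, with Farage and SUDHL5 well above it.

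NFKB1, the p50 precursor of the canonical pathway, had 38.5 and 38.6 CPM in KARPAS422, against 87.9 and 84.9 in DB, 432 and 441 in Farage and 99.7 and 103 in SUDHL5. TNFAIP3, which encodes the feedback inhibitor A20, had 0.274 and 0.545 CPM in KARPAS422, against 2.62 and 2.55 in DB, 399 in both Farage libraries and 32.6 and 26.6 in SUDHL5. BCL2A1, an antiapoptotic member of the BCL2 family, had 0.531 and 0.494 CPM in KARPAS422, against 7.09 and 6.6 in DB, 295 in both Farage libraries and 4.85 and 3.61 in SUDHL5. Farage carried the highest levels of these 3 genes, and both KARPAS422 libraries were below all others. BCL3, CCR7, CD40, CD80, CD83, NFKBIE and NFKBIZ were the other members set apart as lower. The 4 set apart as higher were the cytokines CCL3, CCL4 and LTA and the mitochondrial superoxide dismutase SOD2. The remaining targets were set apart in neither direction. Among them TNF lay above all 3 lines, with log2 differences of 0.35 to 7.87, and RELA lay below all 3, with -0.28 to -0.54. CCL3 had 27.1 and 28.3 CPM in KARPAS422, against 0.197 and 0.125 in DB, 0.219 and 0.269 in Farage and 0 in SUDHL5, at least 130.2-fold higher than in SUDHL5. CCL4 had 35.2 and 36.5 CPM in KARPAS422, against 0.394 and 0.0623 in DB, 0.146 and 0.403 in Farage and 0 in SUDHL5, at least 169-fold higher than in SUDHL5. All 13 lower genes were again set apart as lower in the MI-503 libraries, where 8.4% of all genes and 78.3% of all set-apart lower genes were. All 12 that could be tested were lower than in SuDHL10, where 20.9% of all genes and 62.8% of all set-apart lower genes were.

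**Figure D3:**
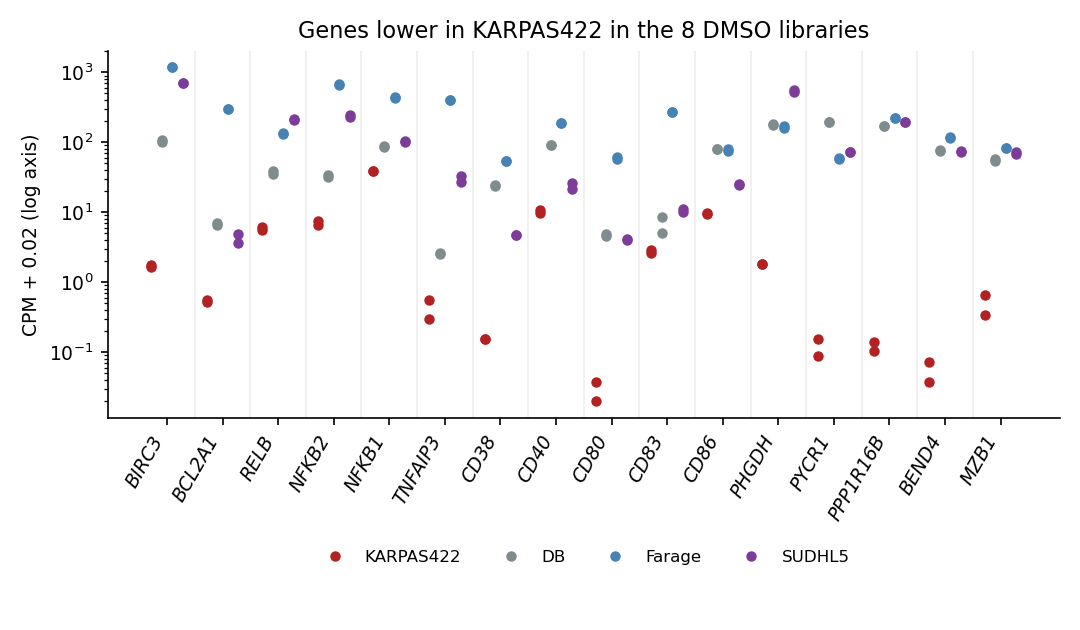
Genes lower in KARPAS422 in the 8 DMSO libraries, as CPM plus 0.02 on a log axis, with 1 point per library and KARPAS422 leftmost within each gene. The KARPAS422 points lay below all others for every gene drawn, from NFKB1 (38.5 and 38.6 CPM) to CD80 (0.0171 and 0 CPM).

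The NF-kB motif, searched as GGGAA, any 3 letters, then CC on both strands of the same promoter windows, was present in 3 of 9 promoters of set-apart lower targets (33.3%), in 6.92% of all promoters and in 7.77% of those of tested genes. None of 3 promoters of set-apart higher targets held it. These genes were listed as NF-kB targets beforehand, so the shares are a description only. The matches of NFKB1 at chr4:102501300-102501329 (+) and of NFKBIZ at chr3:101827757-101827786 (+), an inducible regulator of the pathway, are shown in capitals because the 10 letters are the same in both. NFKBIZ had 3.82 and 4.46 CPM in KARPAS422, against 43.8 and 41.5 in DB, 93.7 and 91.7 in Farage and 35.7 and 36.5 in SUDHL5.
NFKB1: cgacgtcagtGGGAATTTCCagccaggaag
NFKBIZ: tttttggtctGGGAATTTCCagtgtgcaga

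Several surface molecules through which B cells and T cells signal to each other were lower in KARPAS422. Of 22 tested antigens of B cell stages, 6 were set apart as lower (27.3%) and 2 as higher (9.09%), where 8.72% and 8.29% of all genes were, with a median log2 difference of -1.58, or -2.17 with absent genes at the floor. CD40, CD80 and CD83 also stand in the NF-kB list. CD40, the receptor of the T cell help signal, had 10.8 and 9.79 CPM in KARPAS422, against 90.9 and 91.9 in DB, 192 and 189.6 in Farage and 25.9 and 21.6 in SUDHL5. CD86, a ligand of CD28, had 9.78 and 9.42 CPM in KARPAS422, against 81.4 and 80.8 in DB, 81 and 75.3 in Farage and 25.2 and 24.3 in SUDHL5. CD80, its relative, had 0.0171 and 0 CPM in KARPAS422, against 4.86 and 4.61 in DB, 58.3 and 61.4 in Farage and 4.08 and 4.02 in SUDHL5. KARPAS422 was below each of the 6 other libraries for all 3 genes, and CD80 was at or under the floor there. CD58, the ligand of CD2 on T cells, had 0.925 and 0.937 CPM in KARPAS422, against 2.69 and 2.49 in DB, 105 and 110.2 in Farage and 5.12 and 6.24 in SUDHL5. CD83, a mark of activated antigen-presenting cells, differed from the mean by -3.30 ± 0.11 (SE) on the log2 scale.

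CD38, an ectoenzyme of germinal center and plasma cells, had 0.137 and 0.136 CPM in KARPAS422, against 24.3 and 24.1 in DB, 54.1 and 54.8 in Farage and 4.77 and 4.71 in SUDHL5. Its level was 3.46 and 3.51 CPM in K422_CTR cells. The 2 antigens set apart as higher were CD24 and CD1C. CD24, a glycoprotein of immature and germinal center B cells and one of the genes the study names, had 1174 and 1126 CPM in KARPAS422, against 314 and 322 in DB, 0.292 and 0.336 in Farage and 66.2 in both SUDHL5 libraries, so the lines spanned the whole range and KARPAS422 stood at its top. Reads of CD24 may be shared with its near-identical genomic copies. CD1C, which presents lipids, had 160.04 and 150.2 CPM in KARPAS422, against 0.328 and 0.623 in DB, 0.437 and 0.403 in Farage and 4.47 and 4.37 in SUDHL5.

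Receptors for homing and for cytokines followed a mixed course. Of 19 tested homing receptors, 4 were set apart as higher (21.1%) and 6 as lower (31.6%), where 8.29% and 8.72% of all genes were. The integrin chains ITGA4 and ITGB1, which together form VLA-4, were higher, with 616 and 580.3 CPM in KARPAS422, against 55.7 and 56.6 in DB, 83.9 and 83.1 in Farage and 249 and 258 in SUDHL5 for ITGB1. CXCR5, which leads B cells into follicles, had 0.308 and 0.307 CPM in KARPAS422, against 16.2 and 18.5 in DB, 257 and 267 in Farage and 12.6 and 11.9 in SUDHL5. ITGAL, a chain of the integrin LFA-1, had 1.01 and 0.63 CPM in KARPAS422, against 47.4 and 46.3 in DB, 115 and 121 in Farage and 166 and 153 in SUDHL5. Both were below every other library by more than 5 on the log2 scale. CCR7, which is also in the NF-kB list, ICAM2 and ADGRE5 were lower, and GPR18 and GPR183 were higher. Of 20 cytokine receptors, 5 were set apart as lower (8.72% of all genes) and none as higher (8.29% of all genes), with a median log2 difference of -2.36, or -1.88 with absent genes at the floor. IL2RG, the common gamma chain of several interleukin receptors, had 3.94 and 4.17 CPM in KARPAS422, against 51.1 and 53.3 in DB, 145 and 143 in Farage and 97.6 and 86.7 in SUDHL5. IL27RA, IL10RA, TNFRSF17 and TNFRSF8 were the other 4.

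KARPAS422 differed in the antibody genes it transcribed. IGKC (chr2:88857161-88857683, - strand), the kappa light chain constant region, had 885 and 919 CPM in KARPAS422, against 131 and 128 in Farage, 1.1 and 0 in SUDHL5 and 0 in DB, at least 4495-fold higher than in DB. IGHG1, the constant region of IgG1, had 618 and 646 CPM in KARPAS422, against 102 and 107 in DB, 51.5 and 51.6 in Farage and 1.02 and 0.139 in SUDHL5. IGHM, the constant region of IgM, had 0.257 and 0.273 CPM in KARPAS422, against 0.131 and 0 in DB, 565 and 570.4 in Farage and 2719 and 2558 in SUDHL5. Thus IgM transcripts were plentiful in Farage and SUDHL5 and scarce in KARPAS422 and DB, and those of IgG1 and kappa were highest in KARPAS422. Of 13 tested constant-region genes, 5 were set apart as higher (IGHG1, IGHG4, IGKC, IGLC1 and IGLL5) and none as lower, where 8.29% and 8.72% of all genes were, while their median log2 difference was -1.36, or -1.73 with absent genes at the floor. These genes share sequence, so IGHG4 and IGLC1 may hold reads of their relatives. Of the 4 that could be tested against SuDHL10, 2 were again higher in K422_CTR cells and 2 were lower, with log2 differences of -5.62 for IGHG4 and -0.68 for IGLL5.

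Variable segments are chosen once in each B cell clone, so lines of separate clones may carry separate segments. IGKV2-28, a kappa variable segment, had 576 and 577 CPM in KARPAS422, against 0 and 0.134 in Farage, 0.29 and 0.139 in SUDHL5 and 0 in DB, at least 2925-fold higher than in DB. IGKV2D-28 is its near-identical copy, so the segment is uncertain. IGLL1, a surrogate light chain of precursor B cells, had 121 CPM in both KARPAS422 libraries, against 0.197 and 0.125 in DB, 0 and 0.269 in Farage and 0.0967 and 0 in SUDHL5. IGHG1 had 618 and 646 CPM in the KARPAS422 DMSO libraries, against 33.5 and 7.53 CPM in K422_CTR cells. IGHG4 had 101 and 104 CPM in the DMSO libraries, against 0.0735 and 0.255 CPM in K422_CTR cells. IGKV2-28 had 576 and 577 CPM, against 4.78 and 4.38 CPM in K422_CTR cells.

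Among 25 tested genes of B cell receptor signaling, 3 were set apart as higher and 2 as lower, close to the shares of all genes. BANK1, a scaffold, had 98.5 and 92.9 CPM in KARPAS422, against 7.73 and 6.45 in Farage, 32.2 and 31.5 in SUDHL5 and 0 in DB, at least 472-fold higher than in DB. PLCG2, the phospholipase of the receptor, had 1066 and 1078 CPM in KARPAS422, against 639.7 and 647 in DB, 676 and 696 in Farage and 604 and 586 in SUDHL5. BLNK, the adaptor that recruits it, had 49.98 and 51.6 CPM in KARPAS422, against 127 and 133 in DB, 122 and 119 in Farage and 116 and 117 in SUDHL5. The log2 differences of BLNK were -1.20 to -1.36 from the 3 lines, close to each other. Of 9 tested genes of the Fc receptor family, many of which tune B cell signaling, 4 were set apart as higher and 1 as lower (44.4% and 11.1%, where 8.29% and 8.72% of all genes were), with a median log2 difference of 2.70. FCRLB, an intracellular member, had 1392 and 1433 CPM in KARPAS422, against 9.51 and 10.9 in DB, 1.6 and 1.68 in Farage and 17 and 16 in SUDHL5. FCGR2B, the inhibitory receptor for IgG, had 385 and 386 CPM in KARPAS422, against 143 and 142 in DB, 36.5 and 33.3 in Farage and 1.57 and 1.59 in SUDHL5. FCRL1 and FCRL2 were higher too. FCRL5 had 2.59 and 3.59 CPM in KARPAS422, against 8.92 and 8.04 in DB, 88.6 and 83.3 in Farage and 49.3 and 45 in SUDHL5.

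Of 20 tested genes of B cell identity, POU2AF1 and POU2F2 were set apart as higher (close to the 8.29% of all genes) and none as lower (8.72% of all genes). They encode the octamer coactivator OBF1 and the octamer factor OCT2, which work together on antibody genes. POU2AF1 had 1509 and 1538 CPM in KARPAS422, against 355 and 340.2 in DB, 217 and 214 in Farage and 626 and 606 in SUDHL5. Among 22 germinal center genes, CD38 and LRMP were lower (9.09%, close to the share of all genes) and none was higher, and the median log2 difference was -0.01. Of 15 genes of activated B cells, 5 were set apart as lower (33.3%) and 1 as higher (6.67%), with a median of -1.56. Over all genes the shares were 8.72% and 8.29%. Among the lower ones, BATF had 0 and 0.017 CPM in KARPAS422, against 0.0773 and 0.0693 in SUDHL5, near the floor. ENTPD1 had 0.188 and 0.204 CPM in KARPAS422, against 0.387 and 0.347 in SUDHL5, so both genes were scarce in KARPAS422 and SUDHL5. The higher one was FOXP1, a forkhead factor, with 153 CPM in both KARPAS422 libraries, against 46.2 and 47 in DB, 1.24 and 1.68 in Farage and 68.8 and 65 in SUDHL5. IRF4, the factor of the activated B cell and plasma cell program, was not set apart, since only Farage had much of it (0.0343 and 0.0681 CPM in KARPAS422, against 0.394 and 0.436 in DB, 259.6 and 264 in Farage and 0.116 and 0.139 in SUDHL5). Of 15 plasma cell genes, 2 were set apart as higher (XBP1 and SDC1) and 3 as lower (MZB1, ELL2 and TNFRSF17). For comparison, 8.29% of all genes were set apart as higher and 8.72% as lower. MZB1, a chaperone of antibody assembly, had 0.326 and 0.647 CPM in KARPAS422, against 56.8 and 54.6 in DB, 83.5 and 82.9 in Farage and 71.8 and 67.7 in SUDHL5.

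Some genes were on in KARPAS422 and off in all 3 other lines. By a rule chosen after the values were seen, 52 genes had at least 5 CPM in KARPAS422 and under 0.5 CPM in every other line, and 44 had the opposite pattern. The counts were 73 and 63 for DB, 140 and 36 for Farage, and 71 and 48 for SUDHL5. MAGEA3 (chrX:152698767-152702347, + strand), a cancer-testis gene that normal tissues other than testis keep silent, had 53.6 and 49.3 CPM in KARPAS422, against 0 in DB, Farage and SUDHL5. It was at least 250.3-fold higher than in DB, 225-fold higher than in Farage and 237-fold higher than in SUDHL5, although reads of MAGEA6, a near-identical copy, may be included. TBXT (chr6:166157656-166168700, - strand), the mesoderm factor Brachyury, had 32.2 and 33.7 CPM in KARPAS422, against 0 in DB, Farage and SUDHL5, at least 164-fold, 147-fold and 155-fold higher than in DB, Farage and SUDHL5. Neither gene had a single count in the 6 libraries of the other lines. MYBPH, a myosin-binding protein of muscle, had 223 and 215 CPM in KARPAS422, against 0.131 and 0 in DB, 0.0773 and 0 in SUDHL5 and 0 in Farage. DSG4, a desmosome cadherin of hair follicles, had 44.8 and 40.7 CPM in KARPAS422, against 0.0193 and 0 in SUDHL5 and 0 in DB and Farage.

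Of the markers of other blood and tissue cells, CD3D and CD33 were on in KARPAS422 alone by that rule. CD3D, a chain of the T cell receptor complex, had 41.9 and 41.4 CPM in KARPAS422, against 0.058 and 0.0693 in SUDHL5 and 0 in DB and Farage, at least 210.3-fold higher than in DB and 189-fold higher than in Farage. CD3G, its neighbour and partner, had 114 and 109.5 CPM in KARPAS422, against 0.328 and 0.311 in DB, 0.146 and 0.134 in Farage and 0.58 and 0.485 in SUDHL5. Only 7 of 14 T cell markers had enough counts to test, and CD2, CD4, CD7 and CD8B were at or near 0 in KARPAS422. The T cell kinase LCK was lower, with 9.29 and 8.23 CPM in KARPAS422, against 29.7 and 28 in DB, 132 and 130.3 in Farage and 47 and 47.6 in SUDHL5. Summed over the 14 markers, without the scaling between libraries, KARPAS422 had 183 and 178 CPM and the other libraries 31.1 to 223 CPM.

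CD33, a myeloid lectin, had 50.4 and 50.7 CPM in KARPAS422, against 0.262 and 0.0623 in DB, 0 and 0.139 in SUDHL5 and 0 in Farage, while CD14, MPO and S100A8 were near 0. DCN, the fibroblast proteoglycan decorin, had 736 and 713 CPM in KARPAS422, against 42.5 and 39.5 in DB, 0.292 and 0.537 in Farage and 42.4 and 42.9 in SUDHL5, while LUM was lower than in every line and COL1A1 and COL3A1 were near 0. KDR, an endothelial receptor, and CD8B had 0 counts in all 8 libraries. Of the epithelial markers only MUC1 was set apart, at 4.32 and 4.82 CPM in KARPAS422, against 3.08 and 1.99 in DB, 0.219 and 0.201 in Farage and 2.26 and 2.22 in SUDHL5. No NK cell marker was set apart, and no erythroid marker had enough counts to test.

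The opposite pattern, off in KARPAS422 alone, included regulators expressed throughout the other lines. PPP1R16B, a regulatory subunit of protein phosphatase 1, had 0.0857 and 0.119 CPM in KARPAS422, against 173 and 168 in DB, 223 and 225 in Farage and 198 and 192 in SUDHL5, a difference from the mean of -10.84 ± 0.08 (SE), adjusted p = 2.36e-19. BEND4, which carries a BEN domain, had 0.0514 and 0.017 CPM in KARPAS422, against 74.4 and 77.9 in DB, 118 and 116 in Farage and 74.1 and 72.1 in SUDHL5. IKZF2, the Ikaros family factor Helios, had 0.206 and 0.204 CPM in KARPAS422, against 55.4 and 60.1 in DB, 84.4 and 81.6 in Farage and 93.5 and 92.5 in SUDHL5. TEC, a Tec family kinase, had 0.137 and 0.0852 CPM in KARPAS422, against 22.9 and 25.4 in DB, 61.6 and 57 in Farage and 36.6 and 34.8 in SUDHL5. None of the KARPAS422 levels of these 4 genes passed 0.5 CPM, whereas each other line had at least 20 CPM. PKHD1L1, a large receptor-like protein, had 0 counts in both KARPAS422 libraries, against 11.4 and 10.3 in DB, 8.97 and 9.06 in Farage and 6.78 and 8.25 in SUDHL5, at least 199.98-fold lower than in DB, 174-fold lower than in Farage and 132-fold lower than in SUDHL5.

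CHI3L2, a chitinase-like protein, had 0.154 and 0.187 CPM in KARPAS422, against 40.6 and 42.2 in DB, 189.7 and 193 in Farage and 595 and 606 in SUDHL5. TTN, the giant muscle protein titin, had 0.171 and 0.153 CPM in KARPAS422, against 540.5 and 517 in DB, 66.5 and 66.7 in Farage and 176 and 169.6 in SUDHL5. K422_CTR cells had 89.4 and 80.2 CPM of TTN, so its low level was not seen there. FMNL1, a formin of blood cells, had 0.428 and 0.358 CPM in KARPAS422, against 64.4 and 64.9 in DB, 235 and 233 in Farage and 179 and 162 in SUDHL5. The FMNL1 level in K422_CTR cells was 8.82 and 8.04 CPM.

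Of 34 tested genes of ATF4 and amino acid metabolism, 3 were set apart as higher and 3 as lower (8.82% each, close to the 8.29% and 8.72% of all genes), with a median of 0.09. PHGDH (chr1:119648411-119744218, + strand), which opens serine synthesis, had 1.8 and 1.79 CPM in KARPAS422, against 175 and 179.8 in DB, 158 and 172 in Farage and 555 and 531 in SUDHL5. PYCR1, which closes proline synthesis in mitochondria, had 0.137 and 0.0681 CPM in KARPAS422, against 196 and 193 in DB, 57.9 and 60.3 in Farage and 72.9 and 72.2 in SUDHL5. Both were below every other library by more than 6 on the log2 scale. PSAT1, the next enzyme of serine synthesis and a gene the study names, lay within the range of the lines, at 187 and 196 CPM in KARPAS422, against 96.5 and 102 in DB, 139 and 153 in Farage and 257 and 272 in SUDHL5. SHMT1, which passes serine's carbon to folate, was lower, with log2 differences of -0.77 to -1.16. The transporters SLC7A5 and SLC1A4 were higher, and SLC7A5, which carries large neutral amino acids, had 922 and 971 CPM in KARPAS422, against 361 and 349 in DB, 233 and 244 in Farage and 640.01 and 608 in SUDHL5. CBS, which starts cysteine synthesis, had 10.8 and 11.1 CPM in KARPAS422, against 0 and 0.0623 in DB, 3.94 and 4.1 in Farage and 0.213 and 0.139 in SUDHL5. The CBS level in K422_CTR cells was 0 and 0.102 CPM.

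Within the BCL2 family, 3 of 15 tested genes were set apart as lower (BBC3, BCL2A1 and BMF) and 1 as higher (BCL2L2), where 8.72% and 8.29% of all genes were. BCL2L2, which encodes the antiapoptotic BCL-w, had 42.8 and 42.5 CPM in the KARPAS422 DMSO libraries, against 3.75 and 4.07 CPM in K422_CTR cells. BBC3, which encodes the killer protein PUMA, had 4.51 and 4.38 CPM in KARPAS422, against 14.5 and 15.2 in DB, 11.2 and 13.5 in Farage and 56.2 and 48.2 in SUDHL5. BMF, a proapoptotic BH3 protein, had 2.38 and 2.84 CPM in KARPAS422, against 28.9 and 27.9 in DB, 31.2 and 28.9 in Farage and 40.7 and 38.8 in SUDHL5. Both KARPAS422 libraries were below all others for BBC3 and BMF. BCL2 itself, the antiapoptotic gene of many germinal center lymphomas, lay below DB, at 238 and 234 CPM in KARPAS422, against 326 and 336 in DB, 124 and 125 in Farage and 11.7 and 11 in SUDHL5. None of 34 genes of E2F and replication was set apart in either direction. Of 30 mitosis genes, BUB1B and PRC1 were lower (6.67%, where 8.72% of all genes were), with log2 differences of -0.83 to -1.12 for the checkpoint kinase BUB1B. PRC1, which bundles spindle microtubules, had 68 and 66.6 CPM in the KARPAS422 DMSO libraries, against 2.35 and 1.83 CPM in K422_CTR cells. RB1, which restrains E2F, had 278 and 262 CPM in KARPAS422, against 41.9 and 43 in DB, 62.8 and 68.6 in Farage and 142 and 138 in SUDHL5.

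The drugs of this series are aimed at EZH2 and menin, and the genes of both complexes were set apart as higher about as often as all genes. EZH2 (chr7:148807257-148884321, - strand) had 221 CPM in both KARPAS422 libraries, against 120.4 and 124 in DB, 143 and 138 in Farage and 153 and 146 in SUDHL5. It was the highest of the lines in both libraries, by 0.69 ± 0.03 (SE), adjusted p = 1.89e-11, over the mean, but its difference from SUDHL5 stayed under 1.5-fold. Of 15 tested genes of EZH2 and PRC2, EED alone was set apart, as higher (6.67%, where 8.29% of all genes were). EED, the subunit that reads methylated lysine 27, had 184 and 176 CPM in KARPAS422, against 58.7 and 62.8 in DB, 83.1 and 77.5 in Farage and 52.9 and 57.3 in SUDHL5. SUZ12, the scaffold of PRC2, had 227 and 214 CPM in KARPAS422, against 139.6 and 142 in DB, 167 and 160.3 in Farage and 259 and 277 in SUDHL5, so it was lower than in SUDHL5.

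MEN1, which encodes menin, had 98.6 and 102 CPM in KARPAS422, against 138 and 139.97 in DB, 55.5 and 58 in Farage and 86.1 and 78.2 in SUDHL5, between Farage and DB. KMT2A, which encodes MLL1, had 84.1 and 88.5 CPM in KARPAS422, against 192 and 182 in DB, 121 and 120.2 in Farage and 353 and 349.9 in SUDHL5, the lowest level of the lines but within 1.5-fold of Farage. Of 26 tested genes of menin, MLL1 and COMPASS complexes, CXXC1, JADE2 and PCGF1 were set apart as higher (11.5%, where 8.29% of all genes were) and none as lower. CXXC1, which brings the SETD1 complexes to CpG islands, had 150.2 and 152 CPM in KARPAS422, against 51.7 and 49.6 in DB, 69 and 67.1 in Farage and 59.8 and 55.2 in SUDHL5. MYB, a factor of blood progenitors that the study names, had 2.28 and 1.77 CPM in KARPAS422, against 1.9 and 1.87 in DB, 50.02 and 51.5 in Farage and 22.2 and 20.1 in SUDHL5. The log2 difference of MYB from DB was 0.10 (adjusted p = 0.66), and both lines were below Farage and SUDHL5. Of the 17 tested genes the study names, CD24, EED and H4C11 were set apart as higher and IRF5 as lower. These were chosen by the study on cells of the same lines, so their count is not independent evidence.

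**Figure D4:**
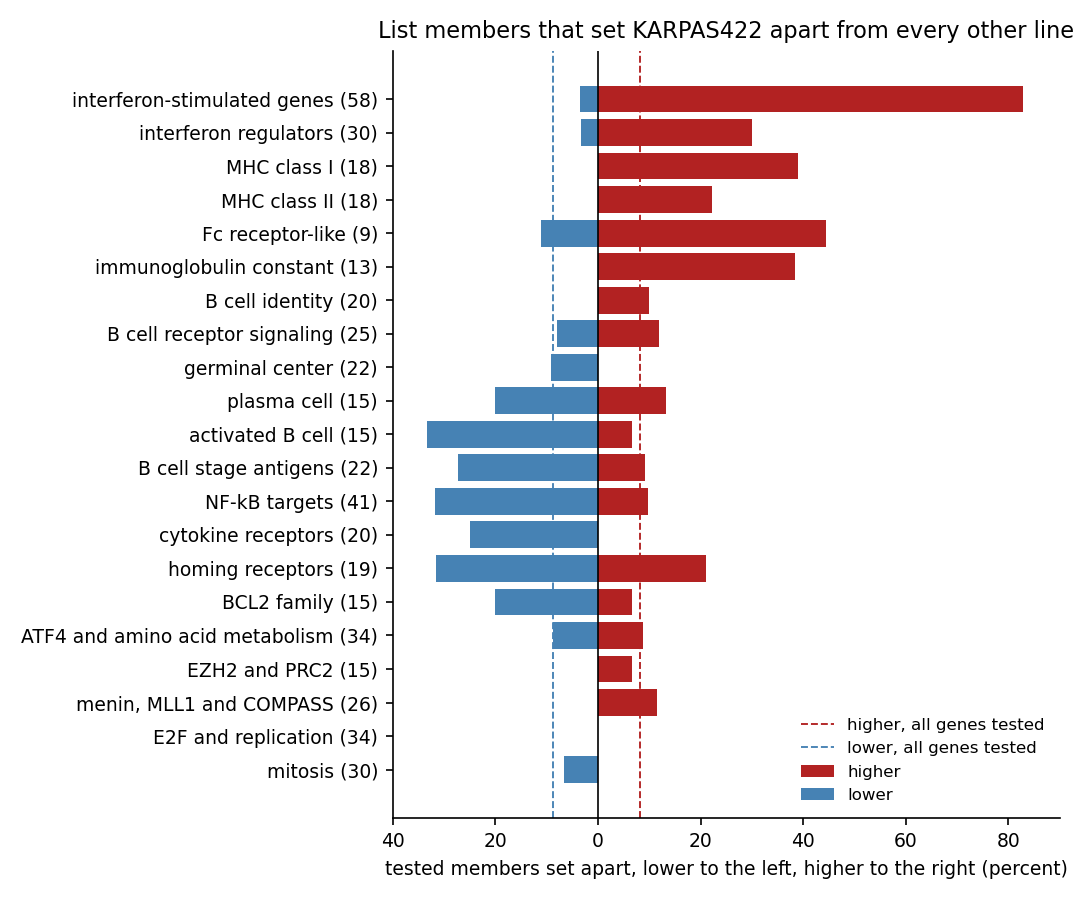
Share of the tested members of gene lists that were set apart as lower (to the left) or higher (to the right) in KARPAS422, in percent, with the number tested in parentheses and dashed lines at the shares over all tested genes. Only a selection of the 34 lists is drawn. Lists left out include p53 targets, with 6 of 26 members lower, and cancer-testis genes, with 3 of 5 higher. Interferon-stimulated genes reached furthest to the right, with 48 of 58 members higher, and the E2F and replication list had none in either direction.

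The higher genes were unevenly spread over the chromosomes. Of 462 tested genes with a position on chromosome 14, 122 were set apart as higher (26.4%) and 20 as lower (4.33%), where 8.29% and 8.72% of all genes were. Their median log2 difference from the mean of the 3 lines was 0.59, and it was 0.71 over DB, 0.59 over Farage and 0.49 over SUDHL5. When the genes were split along the chromosome into 5 bins of equal gene number, 22.8% to 28.3% of each bin were higher, so every bin was above the share over all genes. On chromosome 18, 36 of 181 genes were higher (19.9%), with a median of 0.57. There the share ran unevenly, with 8.11% in the first bin and 44.4% in the last, from PMAIP1 to ADNP2, where the median was 1.27. NFATC1, a transcription factor of calcium signaling in that last bin, had 165 and 167 CPM in KARPAS422, against 41.7 and 40.9 in DB, 106 and 109.97 in Farage and 112 and 96.9 in SUDHL5.

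**Figure D5:**
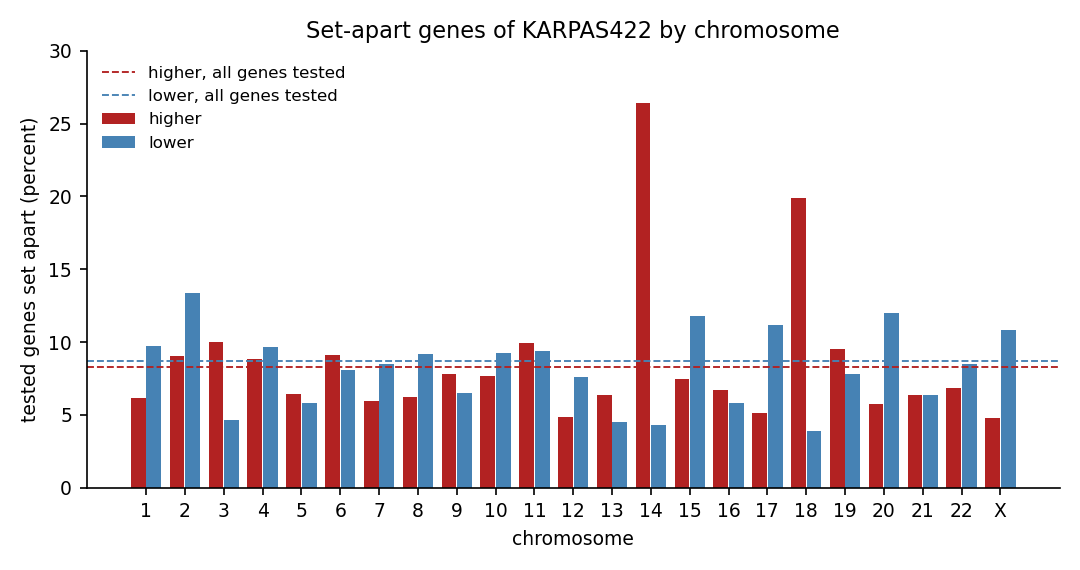
Percent of tested genes on each chromosome that were set apart as higher or lower in KARPAS422, with dashed lines at the shares over all tested genes. Chromosomes 14 (26.4%) and 18 (19.9%) stood above the others among higher genes, and the remaining chromosomes lay between 4.81% and 9.99%.

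In 30 places at least 4 neighbouring tested genes were set apart in the same direction, 19 higher and 11 lower, with 141 genes in all. Several held genes of 1 family. The IFIT and OAS runs are given above. SP110, SP140, SP140L and SP100, nuclear body proteins of chromosome 2, were all higher, and SP140 had 69 and 62.6 CPM in KARPAS422, against 0.459 and 0.748 in DB, 27 in both Farage libraries and 8.49 and 8.32 in SUDHL5. On chromosome 16, MT2A, MT1DP, MT1F and MT1X were higher, with a median of 6.95 on the log2 scale. They belong to the metallothioneins, which bind zinc and copper, and MT2A had 195 and 207 CPM in KARPAS422, against 0.0656 and 0.187 in DB, 4.23 and 3.42 in Farage and 5.55 and 2.15 in SUDHL5. On chromosome 14, PSME2, RNF31, IRF9, REC8, IPO4 and TM9SF1 formed a run around IRF9, although IPO4 had 135 and 133 CPM in the KARPAS422 DMSO libraries, against 2.13 and 2.55 CPM in K422_CTR cells.

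A longer run on chromosome 11 joined RAB39A, CUL5, ACAT1, NPAT, ATM, C11orf65 and POGLUT3, of different functions. ATM, the kinase of DNA breaks, had 587 and 596 CPM in KARPAS422, against 229 and 234 in DB, 218 and 213 in Farage and 234 and 225 in SUDHL5, and its differences from the 3 lines were close to each other, at 1.35 to 1.46 on the log2 scale. In the opposite direction, APOBEC3B, APOBEC3C, APOBEC3D, APOBEC3F and APOBEC3G, cytidine deaminases that act on viruses and that lie in a row on chromosome 22, were all lower. APOBEC3C had 1.27 and 1.28 CPM in KARPAS422, against 51.2 and 53.5 in DB, 158 in both Farage libraries and 82.6 and 84.3 in SUDHL5. APOBEC3G had 0.874 and 1.12 CPM in KARPAS422, against 14.5 and 16.3 in DB, 143 and 147 in Farage and 28 and 28.4 in SUDHL5. The 5 genes are alike in sequence and may share reads, as may the NBPF and GOLGA copies in other lower runs. Neighbours can also overlap, and without the strand setting their counts may not be separate.

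The set-apart genes were looked up in libraries that played no part in choosing them. In cells of the same 4 lines treated with MI-503, 940 of 1165 higher genes were again set apart as higher (80.7%, against 8.44% of all genes tested there), and 961 of 1227 lower genes as lower (78.3%, against 8.40%). None was set apart the opposite way. Against SuDHL10, 639 of 882 higher genes tested were higher in K422_CTR (72.4%, against 25.7% of all genes) and 30 were lower. Of 847 lower genes, 532 were lower (62.8%, against 20.9%) and 100 were higher (11.8%). For interferon-stimulated genes, 44 of 48 were set apart as higher in the MI-503 libraries. Genes that were not set apart there in the same direction included XBP1, SDC1, BUB1B, PRC1, BCL2L2 and MUC1. Among the higher genes, 1 of 3 of ATF4 and amino acid metabolism and 2 of 4 NF-kB targets were set apart again. Among the lower genes, 3 of 5 cytokine receptors and 3 of 5 genes of activated B cells were.

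Levels of the same line were compared between experiments for the genes tested in both tables. Of 882 set-apart higher genes, 28 were over 10-fold lower and 11 over 10-fold higher in K422_CTR than in the KARPAS422 DMSO libraries (4.42% together). Of 847 lower genes, 10 and 14 were (2.83%), and of all 10495 genes, 192 and 129 were (3.06%). GSTP1, a detoxifying transferase set apart as lower, had 7.76 and 8.11 CPM in the DMSO libraries, against 414 and 475 CPM in K422_CTR. RPL5, a ribosomal protein gene also set apart as lower, had 919.6 and 902 CPM in the DMSO libraries, against 3.24 and 4.48 CPM in K422_CTR. The cause of these gaps was not tested.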

How the data were processed

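Cells given DMSO or MI-503 were extracted (AllPrep per the labels, Trizol per the methods), and their RNA was depleted of ribosomal RNA and sequenced. The authors aligned to hg38 using HISAT2 (2.1.0) and assigned reads to genes using featureCounts (1.6.1). The tables deposited hold whole raw counts. CASAVA (1.7) and Picard (2.23.1) also appear in the submitters' notes. Annotation, strandedness and multi-mapping settings: not given in the sources used here. Counts of near-identical or overlapping genes are therefore uncertain.

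The 8 DMSO libraries of a table of 16 were used, with the other 8 (MI-503) and 4 control libraries of the other experiment's table for lookup only. Genes were kept by filterByExpr, scaled by TMM and fitted by line (edgeR 4.0.16 under R 4.3.3, quasi-likelihood test), and p-values were adjusted by Benjamini-Hochberg over all 14066 genes. The contrasts were KARPAS422 minus the mean of the 3 lines and minus each line. On simulated counts the rule for set-apart genes recovered 73.9% of genes changed 2-fold and 90.7% of those changed 4-fold. There the 3 other lines had the same level of each gene, unlike in these data. The shares therefore do not give the rule's recovery on the real lines.

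Named genes are those the study names, the 15 furthest set-apart genes of at least 5 CPM per direction, up to 4 members per list with the smallest p and those against the list's majority, PRC2 and menin genes, and members of runs. Other list members, and genes whose level differed between experiments, were named after their values were seen. The members and the 34 lists were chosen with earlier results of these data known. Gene positions are GENCODE positions on hg38, matched by symbol for 27897 of 35813 genes and by synonym for 352. Alternatives were DESeq2 (1.42.0), other scalings, filters and thresholds, thinned counts, a replicate block and leaving out each library. Each pair of lines was also fitted alone, and all 16 libraries were fitted together. The other experiment's drug-treated libraries and the CRISPR screen were not used. A few genes are left out of the text.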

Additional observations from a re-analysis of the deposited data

How the results depend on the processing

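Set-apart genes numbered 1166 higher and 1227 lower. Leaving out each library in turn gave 1151 to 1200 higher and 1153 to 1233 lower. Each pair of lines fitted alone gave 1268 and 1112, and all 16 libraries in 1 fit gave 1249 and 1265. Single genes were less stable than these totals. Of 270 set-apart genes named by rule, 114 stayed set apart in every alternative that tested them against the mean, a fold above 4 included. The numbers of the labels do not pair libraries across lines (correlations of same-numbered deviations from -0.156 to 0.13), and a replicate block gave 1156 higher and 1214 lower, of which 1149 and 1210 were shared. DESeq2 gave 1005 and 1233, its size factors in edgeR 1107 and 1272, no filter 1318 and 1205, thinned counts 1037 and 1201, and library totals alone 1409 and 1067, which moved the median log2 difference of all genes to 0.17.

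At a fold above 2, 687 genes were higher, 56 of them on chromosome 14, and 1946 were higher than the mean of the lines. At a fold above 4, 297 were higher and 449 lower, with 964 and 1184 against the mean, 31 interferon-stimulated genes higher, 8 NF-kB targets lower, 1 MHC class I gene and 15 genes of chromosome 14 higher. With only genes of at least 10 CPM, an alternative chosen after seeing the data, 656 were higher and 728 lower, and 1905 and 1668 against the mean. Near-zero log2 differences turned sign for 6 uncalled genes: with library totals alone KAT6A (0.032), KMT2B (0.086), MLLT10 (0.034) and PHF19 (0.0098), with thinned counts KMT2B (0.018) and RBBP5 (-0.065), and for TSC1 with size factors (-0.0147), with DESeq2 (-0.0144) and, over the left-out libraries, from -0.000553 without SUDHL5 replicate 2 to 0.044 without SUDHL5 replicate 1. A level under 3 counts could not be told from absence, and that floor was higher in the shallower lines.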
